A study of Arabidopsis thaliana with 36 samples.

Results

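Nucleotide-binding leucine-rich repeat receptors (NLRs) of Arabidopsis thaliana were followed after gamma irradiation. The members are 42 listed loci, known or RefSeq-annotated NLR genes, chosen by name but with earlier results of these data known. The shares of members called below are therefore not independent of these data. A gene was kept when it reached 1 CPM (counts per 1000000 of the library) in at least 3 of the 36 libraries. This left 41 of the 18875 genes tested. The missing locus is TN2 (AT1G17615), a TIR-NB gene without repeats, at 0 to 0.21 CPM in every library. RNA came from whole rosettes of Col-0 plants at 4 weeks of age, grown at 22 °C with 8 h of light and 16 h of dark. Plants received 10 cGy (7 s) or 100 cGy (71 s) at 1.4 cGy per s from a 137Cs source, or no radiation (mock), and were harvested 1, 3, 24 or 72 h later. The 3 treatments and 4 times gave 12 groups of 3 libraries. The labels name no transgene or mutation, and they do not say whether the 3 replicates were separate plants, so every p-value below speaks of the variation among these libraries alone, which may be technical. Mock plants were not exposed; whether they were otherwise handled alike is not given in the sources used here.

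NLRs are intracellular immune receptors. Each has a nucleotide-binding NB-ARC domain that holds ADP at rest and ATP when active, usually followed by leucine-rich repeats. Sensor NLRs recognise pathogen effectors or the damage these do to a host protein. Those with a TIR domain in front (TNLs) make nucleotide-derived signals that are read by EDS1 with PAD4 or SAG101, and those with a coiled coil (CNLs) can form calcium-permeable channels. The helper NLRs ADR1, ADR1-L1, ADR1-L2, NRG1.1 and NRG1.2 act after EDS1 and pass on the signal of many sensors. Too much NLR protein can cause growth loss and autoimmunity, and plants hold the level down through microRNAs, small interfering RNAs, RNA decay and protein turnover.

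One of these controls can be shown as sequence. The microRNA miR472 (mature position chr1:4182143-4182164, minus strand, TAIR10.1) targets the stretch of CNL coding sequence that encodes the ATP-binding loop. It is printed 5′ to 3′ with its seed (bases 2 to 8) in capitals, followed by member sites that a search of the coding sequences found, with bases that form Watson-Crick pairs with miR472 in capitals.

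ath-miR472-3p: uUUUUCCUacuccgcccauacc
RFL1: GGUAUGGGuGGAGUAGGcAAAA
SUMM2: GGcAUGGGuGGAGUAGGcAAAA
ADR1-L1: GGaAUGGGCGGuGUuGGuAAAA

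The search scored a mismatch as 1 and a G:U pair as 0.5, with a limit of 4. It gave 1.5 for RFL1 (AT1G12210), 2.5 for SUMM2 (AT1G12280) and 4.0 for the helper ADR1-L1 (AT4G33300). In all, 4 of 41 members had a site, against 26 of 18363 tested genes with a coding sequence (0.142%). Each printed site lies within 1 exon, at coding bases 547 to 568 in RFL1 and SUMM2 and at 619 to 640 in ADR1-L1. A match is a description of letters and not a measured cleavage. RFL1 is a CNL with no further role given here, and SUMM2 is a CNL that watches over a MAP kinase cascade. MIR472 itself (AT1G12294) is listed at 0 in the table, and the poly(A) libraries were not made for mature microRNAs.

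A second sequence shows how closely NLR genes can stand. RPS4 (AT5G45250, chr5:18321764-18326175, minus strand) and RRS1 (AT5G45260, chr5:18326203-18332920, plus strand) are transcribed away from each other (TAIR10.1) and encode a receptor pair, in which RRS1 carries a WRKY domain that effectors touch and RPS4 starts the response. The annotated genes leave a gap of 27 bases, at chr5:18326176-18326202 on the plus strand.

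RPS4-RRS1 gap: tgagatttgagtggttgaatgtccaat

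The 250 bases before the annotated start of RLM1B (AT1G63880) and RPP2B (AT4G19510) are shown because RLM1B had the smallest p of the members at 1 h after 100 cGy and RPP2B after 10 cGy. They are given for their letters, with the W-box core TTGAC (bound by WRKY factors) in capitals on either strand (as GTCAA where it lies on the other strand). They were read from RefSeq TAIR10.1 at chr1:23716207-23716456 (minus strand) and chr4:10633369-10633618 (plus strand).

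RLM1B promoter: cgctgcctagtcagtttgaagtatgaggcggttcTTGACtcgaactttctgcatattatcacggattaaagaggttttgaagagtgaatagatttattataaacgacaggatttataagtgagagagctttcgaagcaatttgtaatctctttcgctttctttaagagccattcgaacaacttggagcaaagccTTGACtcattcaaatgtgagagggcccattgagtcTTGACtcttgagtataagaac
RPP2B promoter: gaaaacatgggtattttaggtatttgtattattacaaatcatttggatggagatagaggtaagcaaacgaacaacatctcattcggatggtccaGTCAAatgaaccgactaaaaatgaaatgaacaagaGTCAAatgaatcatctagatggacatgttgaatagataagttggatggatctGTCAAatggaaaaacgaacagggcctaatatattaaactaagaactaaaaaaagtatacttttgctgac

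Each of these promoters holds 3 cores. Over the members, 17 of 41 promoters of 250 bases held TTGAC on either strand (41.5%), against 44.6% of 18801 tested genes. The core ACGCG was found in 3 of 41 (7.32%, against 7.42%) and the evening element core AATATCT in 5 of 41 (12.2%, against 10.1%). The share of members lay close to that of all tested genes for each core. TTGAC and ACGCG can overlap through the letters AC.

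Levels spanned a wide range. Per kilobase of coding sequence and averaged over the 36 libraries, the highest level was that of SNC1 (AT4G16890) at 62.2 CPM per kb, a TNL known from a gain-of-function mutant with constant immunity. It was followed by RPP5 (AT4G16950) at 57.6 and the CNL RPP8 (AT5G43470) at 54.8, both named for downy mildew resistance. Next came the TIR-NB protein TN13 (AT3G04210) at 49.0 and ZAR1 (AT3G50950) at 44.6, the CNL whose wheel-shaped resistosome is a calcium channel. WRR4B (AT1G56540), a white rust receptor gene, was lowest at 1.07. The median was 11.6 CPM per kb for 24 TNLs, 5.40 for 10 CNLs and 8.93 for 5 helpers, against 13.7 for 18363 tested genes.

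Reads of some members cannot be assigned cleanly. Of the 41 coding sequences, 11 share at least 10% of their 50-base windows with another locus, among them RPP5 (48.9%), RPP1 (38.5%), AT3G44630 (32.5%), AT5G46490 (31.1%), RPP4 (28.4%), AT5G48620 (21.1%), SNC1 (21.1%) and RPP8 (20.3%). Coding identity was 95.2% for RPP8 with AT5G48620, 92.4% for RPP1 with AT3G44630, 92.0% for SNC1 with RPP5 and 91.6% for AT5G41740 with AT5G41750. In 10 of those 11 members the CPM stood for whole reads in under 20% of libraries, and these levels are uncertain. CHS1, RPS2 and ADR1-L1 share no window but were also mostly not whole, and each overlaps an annotated gene on the other strand. Of other members with such an overlap and no shared window, AT4G36150 and AT1G69550 were whole in every library and RPP13 in 30.6%. The part of the overlap was not tested. In all, 16 members overlap another annotated gene, and whether counting used the strand is not given in the sources used here. RLM1B, TN13, RPS4, RRS1 and CHS3 were whole in every library.

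The depth recovered from the step between CPM values was 22100000 to 36700000 reads (median 31300000, rounded). The floor of 3 counts was therefore 0.0818 to 0.136 CPM, a limit that takes in counting error alone. Within groups, libraries had correlations of 0.979 to 0.994 on the log2 scale over genes. Of the marker lists, all 6 leaf genes (such as RBCS1A and CAB1) passed the filter, with summed levels of 45380 to 64098 CPM. Of 6 root genes 1 passed, with a sum of 45.3 to 150 CPM and EXPA7 and RSL4 at 0 throughout. None of 5 flower genes passed (0.0724 to 1.05 CPM summed). The 10 cGy library replicate 1 at 3 h had the highest share of chloroplast transcripts, 0.608% against a median of 0.213%. In bulk RNA of whole rosettes, fewer cells of a type and less RNA per cell cannot be told apart. All differences are given on the log2(CPM + 0.5) scale, between the means of 3 and 3 libraries, and a member is said to rise or fall when its p, adjusted by Benjamini and Hochberg over all tested genes in limma, was under 0.05.

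One hour after irradiation, part of the NLR genes stood higher than in mock rosettes at both doses. After 10 cGy, 14 of 41 members rose and 0 fell, with a median difference of 0.16 over the members (all tested genes -0.01); of all tested genes, 13.6% rose and 11.8% fell. After 100 cGy, 10 rose and 2 fell, with a median of 0.06 (all genes 0.02), against 10.3% and 7.37% of all tested genes. Summed over the members, levels were 2372 to 2669 CPM in mock, 2764 to 2907 CPM after 10 cGy and 2565 to 2825 CPM after 100 cGy. Both shares of rises were above the background, and both comparisons use the same mock libraries.

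The smallest p of the members was in a TNL sensor at each dose, RPP2B after 10 cGy and RLM1B after 100 cGy. RLM1B (AT1G63880), from the RLM1 locus for blackleg resistance, measured 50.8, 43.5 and 50.02 CPM in mock, 77.2, 67.0 and 74.0 CPM after 10 cGy and 81.9, 86.7 and 70.2 CPM after 100 cGy. All 6 irradiated libraries lay above the 3 mock libraries, with differences of means of 0.59 (SE 0.10, adjusted p = 2.8e-05) after 10 cGy and 0.72 (SE 0.10, adjusted p = 2.1e-06) after 100 cGy. AT5G41740, a RefSeq TIR-NBS-LRR gene with no further role given, measured 36.5, 27.5 and 32.5 CPM in mock, 52.6, 59.0 and 49.7 CPM after 10 cGy and 56.0, 51.2 and 44.2 CPM after 100 cGy. The groups again did not overlap, and the differences were 0.74 (SE 0.13, adjusted p = 9.8e-05) and 0.64 (SE 0.13, adjusted p = 0.00067). Part of the AT5G41740 coding sequence is shared with AT5G41750. WRR4A (AT1G56510), a white rust receptor, measured 53.3, 46.8 and 46.7 CPM in mock, 70.3, 65.7 and 62.9 CPM after 10 cGy and 70.2, 74.1 and 62.1 CPM after 100 cGy. It was higher by 0.44 (SE 0.09, adjusted p = 0.00034) and 0.49 (SE 0.09, adjusted p = 0.00013) without overlap. RPP4 (AT4G16860), a downy mildew receptor of the SNC1 cluster, measured 158, 134 and 146 CPM in mock, 198, 183 and 198 CPM after 10 cGy and 187, 185 and 173 CPM after 100 cGy. Here the rises were 0.41 (SE 0.07, adjusted p = 0.00015) and 0.32 (SE 0.07, adjusted p = 0.003). RPP2B (AT4G19510), another downy mildew receptor, measured 68.4, 65.8 and 68.0 CPM in mock, 89.6, 85.7 and 91.9 CPM after 10 cGy and 82.8, 79.6 and 76.6 CPM after 100 cGy. The 10 cGy libraries stood highest, with a mean above mock by 0.40 (SE 0.06, adjusted p = 2.1e-05), and the 100 cGy libraries lay between, at 0.24 (SE 0.06, adjusted p = 0.0075) above mock. CHS3 (AT5G17890), a TNL with a LIM domain known from a chilling-sensitive mutant, measured 51.2, 49.2 and 50.7 CPM in mock, 59.7, 55.5 and 57.5 CPM after 10 cGy and 62.2, 59.6 and 58.6 CPM after 100 cGy. Its change was small but without overlap, at 0.19 (SE 0.05, adjusted p = 0.0074) and 0.25 (SE 0.05, adjusted p = 0.00079).

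The helper ADR1-L1, which works with EDS1 and PAD4, rose too. ADR1-L1 (AT4G33300) measured 62.9, 45.1 and 47.7 CPM in mock, 76.4, 73.9 and 76.2 CPM after 10 cGy and 74.1, 70.0 and 71.0 CPM after 100 cGy. Mock replicate 1 was the highest of its group, yet every irradiated library exceeded it. The differences between group means were 0.55 (SE 0.11, adjusted p = 0.00056) after 10 cGy and 0.48 (SE 0.11, adjusted p = 0.0032) after 100 cGy. Its relative ADR1 (AT1G33560) measured 11.3, 11.5 and 13.9 CPM in mock, 9.96, 11.7 and 11.3 CPM after 10 cGy and 10.7, 9.81 and 7.73 CPM after 100 cGy. ADR1 fell after 100 cGy, by 0.37 (SE 0.13, adjusted p = 0.042), and leaving out either of mock replicates 2 and 3 or 100 cGy replicates 2 and 3 ended that call. ADR1-L2 differed by 0.13 (SE 0.10, adjusted p = 0.41) and -0.11 (SE 0.10, adjusted p = 0.55), NRG1.1 by 0.08 (SE 0.07, adjusted p = 0.42) and 0.11 (SE 0.07, adjusted p = 0.31), and NRG1.2 by 0.17 (SE 0.12, adjusted p = 0.31) and -0.06 (SE 0.12, adjusted p = 0.81), none of them called.

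Among CNLs, the RIN4 guard RPM1 (AT3G07040) measured 12.6, 12.6 and 14.5 CPM in mock, 19.8, 16.2 and 18.3 CPM after 10 cGy and 17.3, 19.5 and 14.1 CPM after 100 cGy. It rose by 0.43 (SE 0.10, adjusted p = 0.0024) after 10 cGy without overlap and by 0.34 (SE 0.10, adjusted p = 0.023) after 100 cGy with overlap. RPS2 (AT4G26090), the other RIN4 guard, measured 12.5, 9.13 and 4.85 CPM in mock and 12.0, 12.9 and 11.5 CPM after 10 cGy, overlapping groups. The second fall after 100 cGy was in the TNL AT3G44630, at 132, 114 and 108 CPM in mock and 97.1, 93.1 and 87.0 CPM after 100 cGy, a difference of -0.35 (SE 0.07, adjusted p = 0.00077) with no overlap. Part of the AT3G44630 coding sequence is shared with RPP1. Other rises after 10 cGy were those of TN13, 0.58 (SE 0.15, adjusted p = 0.0052), AT5G46490, 0.34 (SE 0.08, adjusted p = 0.0025), AT1G31540, 0.33 (SE 0.11, adjusted p = 0.029), RPS6, 0.24 (SE 0.08, adjusted p = 0.026), RPS4, 0.21 (SE 0.06, adjusted p = 0.016), and the CNL RPP13 (AT3G46530), named for downy mildew resistance, 0.28 (SE 0.07, adjusted p = 0.0037). By class, 10 of 24 TNLs, 2 of 10 CNLs, 1 of 2 TIR-NB genes and 1 of 5 helpers rose after 10 cGy. When each library was left out in turn, 11 of the 14 rises after 10 cGy held throughout, and 7 of 10 rises and 1 of 2 falls after 100 cGy; without mock replicate 2 the counts were 11 and 8. The 1 root gene that passed, BGLU23, fell after 10 cGy, and the summed root list was 80.7 to 85.0 CPM in mock, 45.9 to 55.6 CPM after 10 cGy and 64.5 to 86.0 CPM after 100 cGy; its part in the result was not tested.

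**Figure D1:**
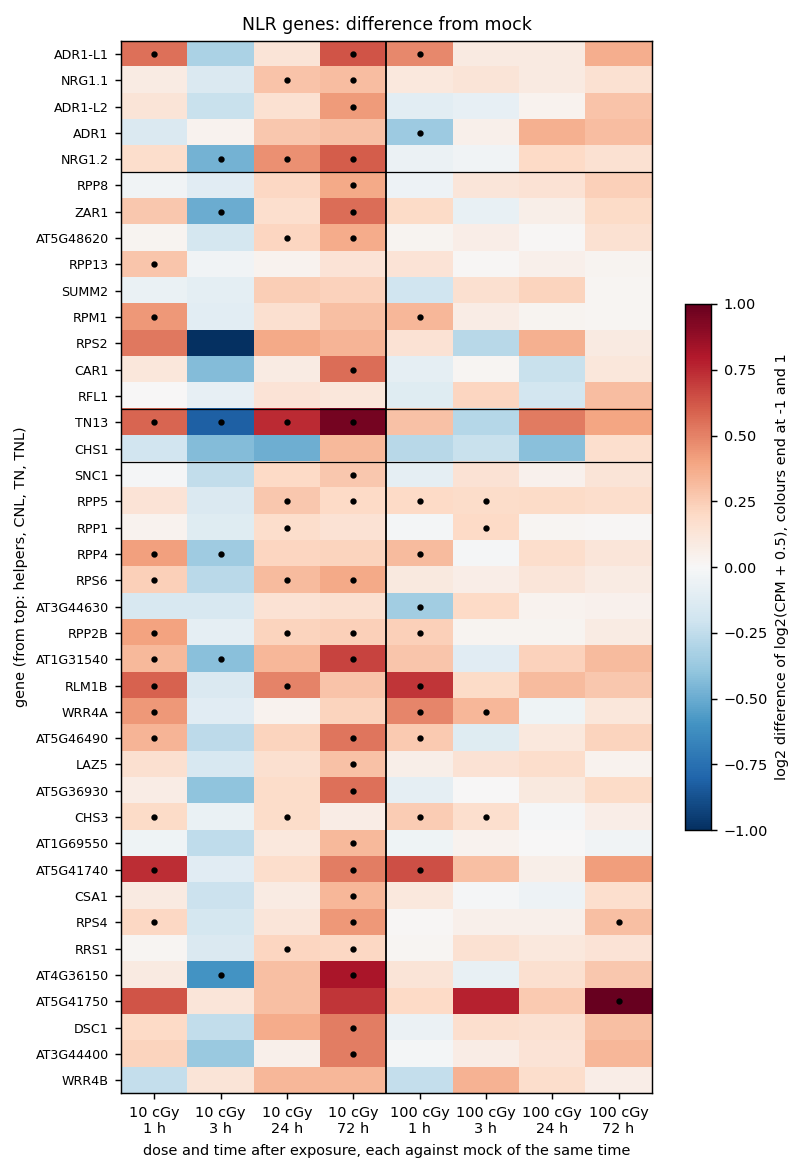
Log2 difference from mock of the same time for 40 NLR genes (rows, by class and then by level per kilobase) in 8 contrasts (columns: 10 cGy on the left, 100 cGy on the right, at 1, 3, 24 and 72 h). Black dots mark members with an adjusted p under 0.05; 25 have one for 10 cGy at 72 h, all of them rises, and colours beyond -1 or 1 are cut off.

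At 3 h most NLR genes stood lower after 10 cGy than in mock. After 10 cGy, 38 of 41 members had a difference below 0, 6 fell and 0 rose, with a median of -0.18 (all genes -0.03); of all tested genes, 0.721% fell and 0.774% rose. After 100 cGy, 4 members rose and 0 fell (median 0.07, all genes 0.09), against 10.6% and 1.86% of all tested genes, so the share of rises is near the background. Summed levels were 2085 to 2275 CPM in mock, 1754 to 1960.1 CPM after 10 cGy and 2219 to 2509.7 CPM after 100 cGy, and the 10 cGy libraries lay below all others.

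TN13 (AT3G04210), a TIR-NB protein needed for resistance to Pseudomonas syringae, measured 72.8, 55.9 and 73.4 CPM in mock, 39.6, 33.2 and 41.3 CPM after 10 cGy and 59.2, 56.1 and 49.2 CPM after 100 cGy. The 10 cGy libraries lay below all others and those of 100 cGy overlapped mock, with a fall of 0.81 (SE 0.15, adjusted p = 0.0076) after 10 cGy, while the 100 cGy difference was -0.29 (SE 0.15, adjusted p = 0.21). RPP4 (AT4G16860) measured 163, 154 and 164 CPM in mock, 124, 119.8 and 131 CPM after 10 cGy and 151, 172 and 155 CPM after 100 cGy. The 10 cGy libraries were the lowest, at -0.36 (SE 0.07, adjusted p = 0.013), and those of 100 cGy overlapped mock. ZAR1 (AT3G50950) measured 127, 105 and 126 CPM in mock, 87.6, 77.2 and 88.3 CPM after 10 cGy and 119, 117 and 102 CPM after 100 cGy. ZAR1 fell after 10 cGy, by 0.49 (SE 0.12, adjusted p = 0.036), while the 100 cGy difference was -0.08 (SE 0.12, adjusted p = 0.71). NRG1.2 (AT5G66910), a helper that works with EDS1 and SAG101, measured 14.3, 12.3 and 12.9 CPM in mock, 9.16, 9.34 and 9.44 CPM after 10 cGy and 12.3, 14.2 and 12.1 CPM after 100 cGy. It fell by 0.48 (SE 0.12, adjusted p = 0.038) after 10 cGy. The remaining falls were those of AT4G36150, -0.60 (SE 0.14, adjusted p = 0.024), and AT1G31540, -0.42 (SE 0.11, adjusted p = 0.0496), both RefSeq TIR-NBS-LRR genes.

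None of these 6 falls kept its call throughout when each library was left out in turn. The count was 0 without mock replicate 1 or without 10 cGy replicate 2, 1 without 10 cGy replicate 1 (the library with most chloroplast transcripts) and 3 without mock replicate 3, and it was 1 when only the 3 h libraries were fitted. At an unadjusted p under 0.05, 27 of 41 members differed, but all tested genes were not counted at that limit. BGLU23 rose after 10 cGy, and the root list sum was 53.6 to 83.7 CPM in mock and 108 to 122 CPM after 10 cGy, and chloroplast transcripts took 0.181% to 0.329% in mock and 0.182% to 0.608% after 10 cGy; the leaf list sum was 53296 to 55578 CPM in mock and 49717 to 52085 CPM after 10 cGy, without overlap. The part of any of these in the result was not tested.

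The 4 rises after 100 cGy were in TNLs. RPP1 (AT3G44480), named for downy mildew resistance, measured 113, 110.0 and 113 CPM in mock and 125, 138 and 124 CPM after 100 cGy, a rise of 0.20 (SE 0.05, adjusted p = 0.013). WRR4A (AT1G56510) measured 32.6, 30.5 and 33.8 CPM in mock, 30.6, 25.2 and 34.0 CPM after 10 cGy and 37.2, 43.6 and 41.5 CPM after 100 cGy. Its 100 cGy libraries lay above the rest, with a mean above mock by 0.33 (SE 0.09, adjusted p = 0.015). CHS3 differed by 0.17 (SE 0.05, adjusted p = 0.034) and RPP5 by 0.19 (SE 0.06, adjusted p = 0.046). The count was 0 without mock replicate 2 or 100 cGy replicate 2, 2 without mock replicate 1, 1 in a fit of the 3 h libraries alone and 0 after rescaling by median ratios, a scaling that moved the median of all genes in this contrast from 0.09 to -0.01 and that of the members from 0.07 to -0.04. The leaf list sum was lower after 100 cGy (45380 to 50228 CPM) than in mock (53296 to 55578 CPM), without overlap, and 3 of its 6 genes fell; its part was not tested.

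RPS2, RPS4, RRS1 and ADR1-L1 were not called against mock at 3 h. RPS2 measured 15.6, 13.1 and 11.6 CPM in mock, 5.32, 4.75 and 9.23 CPM after 10 cGy and 7.42, 14.9 and 11.6 CPM after 100 cGy, with the largest difference of the members after 10 cGy, -1.05 (SE 0.34, adjusted p = 0.11), and a wide spread. RPS4 measured 22.8, 19.9 and 21.0 CPM, 19.1, 17.3 and 19.8 CPM and 21.2, 23.5 and 21.2 CPM in the same groups, and RRS1 23.8, 22.6 and 24.8 CPM, 22.8, 19.7 and 21.8 CPM and 24.6, 28.2 and 26.8 CPM. Their differences from mock after 10 cGy were -0.18 (SE 0.06, adjusted p = 0.16) and -0.15 (SE 0.06, adjusted p = 0.20). ADR1-L1 measured 55.3, 51.7 and 62.2 CPM in mock, 45.3, 41.4 and 48.8 CPM after 10 cGy and 62.5, 61.6 and 55.9 CPM after 100 cGy, with -0.32 (SE 0.11, adjusted p = 0.15) and 0.09 (SE 0.11, adjusted p = 0.63).

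Set directly against each other at 3 h, the doses differed. All 41 members were higher after 100 cGy than after 10 cGy, 24 of them by the test and 0 in the other direction (median 0.31, all genes 0.11), against 11.7% and 0.821% of all tested genes. RPP1 measured 106, 97.9 and 107 CPM after 10 cGy, below its 100 cGy libraries by 0.32 (SE 0.05, adjusted p = 0.0005). SNC1 measured 289, 259 and 268 CPM in mock, 232, 210.2 and 245 CPM after 10 cGy and 295, 334 and 276 CPM after 100 cGy. The 10 cGy libraries lay below both other groups, which overlapped, and the doses differed by 0.39 (SE 0.07, adjusted p = 0.00076). Against mock the differences were -0.25 (SE 0.07, adjusted p = 0.055) and 0.15 (SE 0.07, adjusted p = 0.15). RPP5 differed by 0.33 (SE 0.06, adjusted p = 0.0015), WRR4A by 0.45 (SE 0.09, adjusted p = 0.0021), RRS1 by 0.30 (SE 0.06, adjusted p = 0.0021) and AT3G44630 by 0.36 (SE 0.07, adjusted p = 0.0026). These calls depend on the fit: 7 held without any 1 library, 7 were left without 100 cGy replicate 2, 9 without 10 cGy replicate 2, 3 after rescaling by median ratios (which moved the median of all genes from 0.11 to -0.01 and of the members to 0.18) and 0 when only the 3 h libraries were fitted. Genes with a coding sequence of at least 3000 bases (n = 1061) rose in 19.8% of cases here, above the share of all genes.

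The change of the dose effect from 1 h to 3 h was tested as an interaction, with each time's own mock libraries. For 10 cGy it was called in 22 of 41 members, all negative (median -0.39, all genes -0.02), against 8.78% negative and 5.83% positive among all tested genes, and 14 of the 22 held without any 1 library. The largest, in RPS2, -1.58 (SE 0.47, adjusted p = 0.023), was lost without at least 1 library. The largest that held were in TN13, -1.40 (SE 0.22, adjusted p = 4.1e-05), ADR1-L1, -0.87 (SE 0.16, adjusted p = 0.00036), and AT5G41740, -0.85 (SE 0.19, adjusted p = 0.0019). For 100 cGy, 2 members had a positive and 3 a negative change (median 0.03, all genes 0.07), against 7.83% and 3.60% of all genes. AT3G44630 had the largest positive one, 0.55 (SE 0.10, adjusted p = 0.00046), and RLM1B the largest negative one, -0.53 (SE 0.14, adjusted p = 0.0092); both held without any 1 library.

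At 24 h, 11 of 41 members rose after 10 cGy and 0 fell, with 40 of 41 differences above 0 (median 0.21, all genes 0.07), against 2.62% rises and 0.673% falls among all tested genes. After 100 cGy limma called 0 members in either direction, against 0.201% and 0.397% of all genes, and the median was 0.10 (all genes -0.01). At an unadjusted p under 0.05, 9 members differed, with no count of all genes at that limit. Summed levels were 1844 to 1991 CPM in mock, 2118 to 2383 CPM after 10 cGy and 2013 to 2059 CPM after 100 cGy.

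TN13 (AT3G04210) measured 30.6, 25.7 and 22.2 CPM in mock, 47.2, 34.6 and 51.9 CPM after 10 cGy and 40.0, 34.4 and 38.3 CPM after 100 cGy. The lowest 10 cGy library was above the highest mock library, a rise of 0.75 (SE 0.15, adjusted p = 0.0065). RLM1B (AT1G63880) measured 18.1, 19.0 and 15.9 CPM in mock, 26.5, 21.4 and 27.7 CPM after 10 cGy and 20.3, 22.4 and 23.8 CPM after 100 cGy. RLM1B rose by 0.50 (SE 0.10, adjusted p = 0.0036) after 10 cGy. The helpers NRG1.1 (AT5G66900), at 23.1, 21.3 and 21.3 CPM in mock and 25.5, 27.1 and 27.8 CPM after 10 cGy, and NRG1.2, at 8.50, 9.08 and 6.21 CPM and 9.94, 11.0 and 12.1 CPM, rose by 0.28 (SE 0.07, adjusted p = 0.019) and 0.46 (SE 0.12, adjusted p = 0.03). RPS6 (AT5G46470), a TNL that recognises a bacterial effector, rose by 0.31 (SE 0.08, adjusted p = 0.028) and RPP5 by 0.27 (SE 0.06, adjusted p = 0.015). None of the 11 kept its call throughout when each library was left out in turn. The count was 0 without 10 cGy replicate 3, the library with the highest NLR sum of its group, 3 without mock replicate 3, 6 without mock replicate 1 or mock replicate 2 and 7 without 10 cGy replicate 2. It was 0 in a fit of the 24 h libraries alone, 2 after rescaling by median ratios and 7 with no filter on low values. The leaf list sum was 55588 to 62348 CPM in mock and 51432 to 56265 CPM after 10 cGy; its part was not tested.

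The contrast with the most NLR genes called, of the 8 between a dose and mock, was 10 cGy at 72 h. After 10 cGy all 41 members had a difference above 0 and 25 rose, with 0 falls (median 0.33, all genes 0.03), against 4.72% rises and 4.66% falls among all tested genes. The list was chosen with earlier results of these data known, so this share is not independent of them. After 100 cGy 2 members rose and 0 fell (median 0.17, all genes 0.04), against 1.37% and 0.217%. The summed level was 2119 to 2285 CPM in mock, 2742 to 2898 CPM after 10 cGy and 2331 to 2778 CPM after 100 cGy, so that both doses lay above mock, and the 100 cGy group overlapped 10 cGy through its replicate 3. The rises after 10 cGy covered 16 of 24 TNLs, 4 of 10 CNLs, 1 of 2 TIR-NB genes and 4 of 5 helpers.

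RPS4 had the smallest p. RPS4 (AT5G45250), the starting partner of the RPS4-RRS1 pair, measured 19.9, 18.6 and 21.4 CPM in mock, 26.6, 27.3 and 27.4 CPM after 10 cGy and 24.4, 22.9 and 26.9 CPM after 100 cGy. All irradiated libraries exceeded mock, with differences of means of 0.43 (SE 0.06, adjusted p = 0.00053) after 10 cGy and 0.30 (SE 0.06, adjusted p = 0.022) after 100 cGy. RRS1 (AT5G45260) measured 22.3, 22.1 and 22.8 CPM in mock, 26.3, 25.6 and 25.6 CPM after 10 cGy and 23.7, 24.5 and 25.9 CPM after 100 cGy. The 10 cGy libraries again lay above mock, with a smaller difference of 0.20 (SE 0.06, adjusted p = 0.026). TN13 (AT3G04210) measured 86.4, 67.4 and 73.2 CPM in mock, 151, 161 and 129 CPM after 10 cGy and 81.8, 94.2 and 127 CPM after 100 cGy. TN13 had the largest rise of the members, 0.96 (SE 0.15, adjusted p = 0.00077), and 100 cGy overlapped mock. AT5G46490, which lies 903 bases from RPS6, measured 37.5, 34.8 and 37.5 CPM in mock, 55.4, 52.7 and 51.5 CPM after 10 cGy and 40.0, 37.4 and 52.1 CPM after 100 cGy. It rose by 0.53 (SE 0.08, adjusted p = 0.0006) after 10 cGy. AT4G36150 measured 12.2, 10.1 and 10.1 CPM in mock and 19.5, 19.9 and 18.5 CPM after 10 cGy, higher by 0.82 (SE 0.14, adjusted p = 0.0011). AT1G31540 measured 57.0, 50.9 and 55.3 CPM and 88.1, 88.7 and 84.4 CPM, a rise of 0.67 (SE 0.11, adjusted p = 0.00089). AT5G48620, a close copy of RPP8, rose by 0.37 (SE 0.06, adjusted p = 0.00077) and RPP8 by 0.38 (SE 0.08, adjusted p = 0.0047), with split reads.

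Of the 5 helpers 4 rose after 10 cGy, and ZAR1 was 1 of the 4 CNLs that did. ADR1-L1 (AT4G33300) measured 36.5, 33.7 and 36.0 CPM in mock, 55.0, 58.7 and 51.2 CPM after 10 cGy and 41.1, 41.9 and 54.8 CPM after 100 cGy. Of the 100 cGy libraries only replicate 3 reached the 10 cGy range; the differences were 0.63 (SE 0.11, adjusted p = 0.0017) and 0.36 (SE 0.11, adjusted p = 0.092). ADR1-L2 (AT5G04720) measured 19.4, 16.1 and 20.0 CPM in mock and 25.0, 26.4 and 23.6 CPM after 10 cGy, a rise of 0.43 (SE 0.10, adjusted p = 0.0088). NRG1.1 measured 19.3, 21.3 and 23.0 CPM and 27.3, 27.2 and 24.6 CPM, and NRG1.2 13.6, 12.6 and 13.6 CPM and 20.2, 22.3 and 18.9 CPM. Both NRG1 genes rose without overlap, by 0.31 (SE 0.07, adjusted p = 0.0046) and 0.61 (SE 0.12, adjusted p = 0.0026). ADR1, the helper not called, measured 11.4, 12.5 and 14.9 CPM in mock and 16.5, 15.4 and 15.7 CPM after 10 cGy, 0.29 (SE 0.13, adjusted p = 0.16). ZAR1 (AT3G50950) measured 116, 92.6 and 101 CPM in mock, 149, 158 and 149.7 CPM after 10 cGy and 102, 108 and 148 CPM after 100 cGy. ZAR1 rose by 0.56 (SE 0.12, adjusted p = 0.0047) after 10 cGy and differed by 0.20 (SE 0.12, adjusted p = 0.42) after 100 cGy. SNC1 measured 268, 259.8 and 261 CPM in mock and 312, 331 and 310.3 CPM after 10 cGy, a rise of 0.27 (SE 0.07, adjusted p = 0.01). RPM1, at 0.30 (SE 0.10, adjusted p = 0.065), and RPS2, at 0.34 (SE 0.34, adjusted p = 0.60), were not called.

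Among the other rises after 10 cGy were those of CAR1, 0.56 (SE 0.16, adjusted p = 0.028), AT5G36930, 0.55 (SE 0.12, adjusted p = 0.0038), AT5G41740, 0.51 (SE 0.13, adjusted p = 0.014), AT3G44400, 0.51 (SE 0.14, adjusted p = 0.02), and DSC1 (AT4G12010), 0.51 (SE 0.11, adjusted p = 0.005), a TNL behind the dwarfism of camta3 mutants. RPS6 rose by 0.38 (SE 0.08, adjusted p = 0.004), CSA1 by 0.33 (SE 0.08, adjusted p = 0.01), AT1G69550 by 0.32 (SE 0.09, adjusted p = 0.029) and LAZ5 (AT5G44870), a TNL needed for the cell death of acd11 mutants, by 0.29 (SE 0.08, adjusted p = 0.015). RPP2B and RPP5 were higher by 0.24 (SE 0.06, adjusted p = 0.017) and 0.20 (SE 0.06, adjusted p = 0.041).

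Of the 25 rises after 10 cGy, 13 held without any 1 library, among them RPS4, TN13, ZAR1, ADR1-L1, NRG1.1 and NRG1.2. Without mock replicate 2, the mock library with the lowest NLR sum, the count was 13; 12 members, such as SNC1, ADR1-L2, RPP8, RRS1 and CSA1, lost the call without at least 1 library. With only the 72 h libraries in the fit 17 members were called. Chloroplast transcripts took 0.161% to 0.331% in mock and 0.176% to 0.302% after 10 cGy, and the leaf list sum was 53854 to 59905 CPM in mock and 52485 to 54194 CPM after 10 cGy, overlapping ranges both. Long genes (coding sequence of at least 3000 bases) rose in 9.52% of 1061 cases, against 4.72% of all genes.

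The second rise after 100 cGy was in AT5G41750, at 4.31, 3.53 and 6.39 CPM in mock, 7.49, 8.15 and 8.05 CPM after 10 cGy and 23.1, 19.0 and 8.56 CPM after 100 cGy. Replicates 1 and 2 of 100 cGy were far above the rest and replicate 3 was near the 10 cGy level, giving 1.65 (SE 0.30, adjusted p = 0.0084). Its neighbour AT5G41740, which lies 712 bases away and shares 12.7% of its windows, measured 18.7, 17.6 and 18.0 CPM, 24.4, 28.1 and 25.8 CPM and 25.2, 26.2 and 21.8 CPM for mock, 10 cGy and 100 cGy. Both 100 cGy calls were lost without mock replicate 1, mock replicate 2 or 100 cGy replicate 1, and in a fit of the 72 h libraries alone the count was 0. Without mock replicate 3 it was 4.

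Between the doses, no member was called by limma at 1, 24 or 72 h. The shares of all genes given here are of adjusted calls, and all genes were not counted at the unadjusted limit. At 1 h the median of 100 cGy minus 10 cGy was -0.09, 5 of 41 members had an unadjusted p under 0.05, and 0.318% and 0.408% of all tested genes were called higher and lower. At 24 h the median was -0.11, 8 members had an unadjusted p under 0.05, and 0.143% and 0.985% of all genes were called. At 72 h 38 of 41 members were lower after 100 cGy (median -0.16) and 19 had an unadjusted p under 0.05, with 0% of all genes called higher and 0% lower. Without 100 cGy replicate 3, the library with the highest NLR sum of its group, 12 members were called at 72 h, 11 of them lower after 100 cGy and 1 higher. The share of all genes called in that fit is not given here, so these calls are not read as particular to NLR genes. The 95% intervals at 72 h ran from -0.50 to -0.03 for ADR1-L1 and from -0.26 to 0.00 for RPS4, so equal levels at the doses are not shown. The 1 h calls of both doses rest on the same mock libraries, and so do those at each other time.

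**Figure D2:**
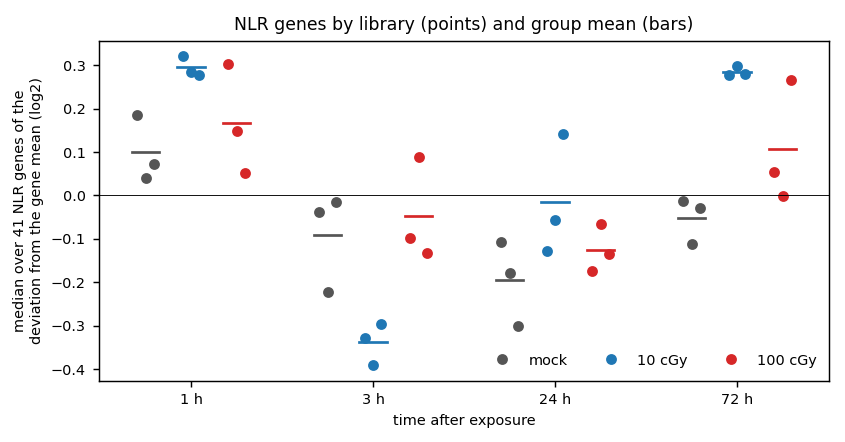
Median over the 41 NLR genes of each gene's deviation from its own mean over all 36 libraries (log2, vertical axis), for each library (points) by time and dose, with the mean of 3 libraries (bars). The 10 cGy libraries lie at 0.28 to 0.32 at 1 h, at -0.39 to -0.30 at 3 h and at 0.28 to 0.30 at 72 h.

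**Figure D3:**
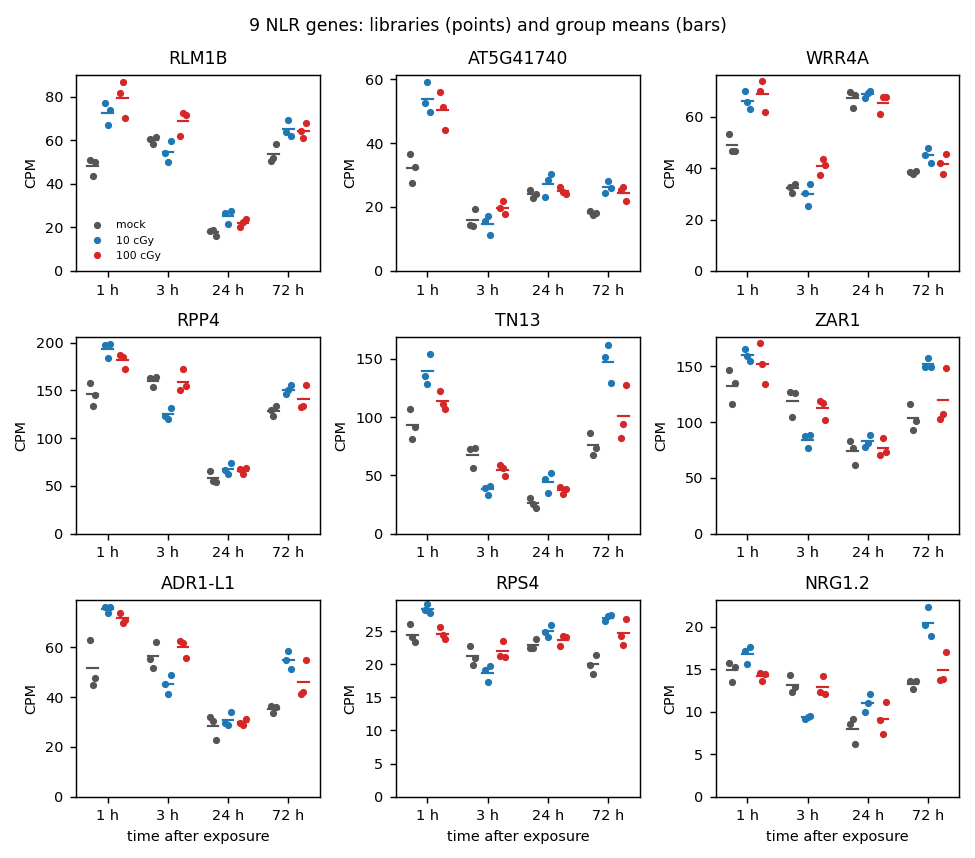
CPM in every library (points) and group mean (bars) of 9 NLR genes by time after exposure, for mock (grey), 10 cGy (blue) and 100 cGy (red). TN13 in 10 cGy rosettes lies above mock at 1, 24 and 72 h and below mock at 3 h.

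NLR levels also differed between times in mock rosettes. Against mock at 1 h, 3 members rose and 19 fell at 3 h (median -0.18), with 24.0% and 20.1% of all tested genes. At 24 h 3 rose and 25 fell (median -0.41), with 20.3% and 18.1% of all genes. At 72 h 1 rose and 15 fell (median -0.16), with 18.4% and 14.9% of all genes. Rises were thus below, and falls above, the shares of all genes at each time. Long genes (coding sequence of at least 3000 bases, n = 1061) fell in 26.2%, 30.1% and 21.0% of cases at 3, 24 and 72 h. They rose in 21.2%, 17.4% and 15.9%. Of 77 tested genes outside the list that RefSeq names NBS-LRR, NBS class or NB-ARC, 23, 24 and 11 fell and 7, 11 and 7 rose. Their medians were -0.15, -0.08 and -0.04. The hour of day at harvest is not given in the labels, so time after exposure and time of day cannot be told apart, and all 3 comparisons share the mock libraries of 1 h.

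The largest falls from 1 h to 3 h in mock were in AT5G41740, at 36.5, 27.5 and 32.5 CPM and then 14.5, 14.1 and 19.5 CPM, -0.99 (SE 0.13, adjusted p = 4.8e-07). WRR4B went from 5.39, 4.45 and 4.60 CPM to 2.05, 1.85 and 3.10 CPM, -0.93 (SE 0.16, adjusted p = 1.8e-05). CAR1 (AT1G50180), a CNL that recognises conserved bacterial effectors, went from 6.02, 4.72 and 7.09 CPM to 2.99, 3.43 and 3.19 CPM, -0.79 (SE 0.16, adjusted p = 0.00025). AT3G44630 fell by 0.70 (SE 0.07, adjusted p = 6.4e-09). In these 4 genes the 2 times did not overlap. At 24 h the largest falls were those of TN13, -1.81 (SE 0.15, adjusted p = 2.2e-10), RLM1B, -1.42 (SE 0.10, adjusted p = 2.9e-12), AT4G36150, -1.35 (SE 0.14, adjusted p = 7.5e-09), and RPP4, -1.31 (SE 0.07, adjusted p = 8.2e-14), and each held without any 1 library. RPP4 measured 158, 134 and 146 CPM at 1 h and 66.1, 55.1 and 54.1 CPM at 24 h. Of its cluster, RPP5 differed by -0.83 (SE 0.06, adjusted p = 2.1e-11) and SNC1 by -0.41 (SE 0.07, adjusted p = 1.4e-05). WRR4A, RPP1 and AT3G44630 were the 3 that rose at 24 h, by 0.46 (SE 0.09, adjusted p = 0.0001), 0.34 (SE 0.05, adjusted p = 4.4e-06) and 0.35 (SE 0.07, adjusted p = 0.00034).

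RFL1 and SUMM2, whose miR472 sites are printed above, had these levels and differences in mock. RFL1 measured 2.57, 1.80 and 1.96 CPM at 1 h and 2.70, 3.35 and 4.47 CPM at 3 h, a rise of 0.60 (SE 0.18, adjusted p = 0.0085) that was lost without mock replicate 3 of 3 h. RLM1B rose as well, by 0.32 (SE 0.10, adjusted p = 0.0067), a call lost without mock replicate 2 of 1 h. SUMM2 differed by -0.07 (SE 0.12, adjusted p = 0.68), 0.14 (SE 0.12, adjusted p = 0.36) and 0.19 (SE 0.12, adjusted p = 0.21) at 3, 24 and 72 h from mock at 1 h. With either dose against mock, RFL1 and SUMM2 were called in 0 of 16 tests by limma, at differences from -0.20 to 0.31 and a smallest adjusted p of 0.23. ADR1-L1, whose site scores at the limit, rose in 3 dose contrasts. The mature miR472 position lies 4121 bases from the end of SUMM2. The level of the microRNA was not analysed here.

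**Figure D4:**
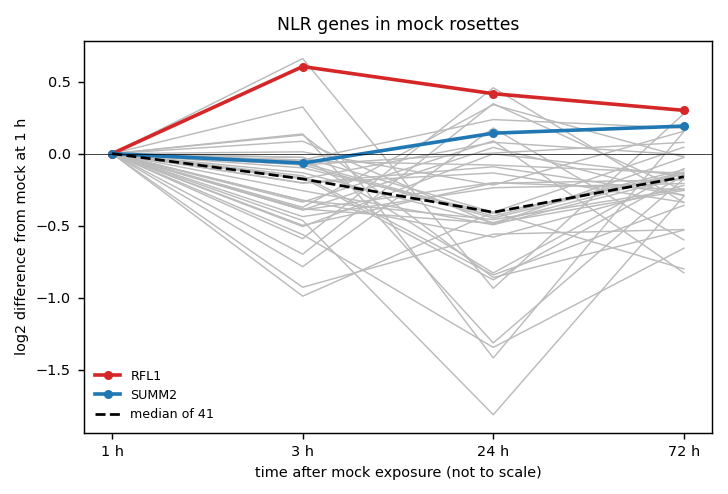
Log2 difference from mock at 1 h (vertical axis) in mock rosettes at 1, 3, 24 and 72 h (horizontal axis, not to scale) for 40 NLR genes, with RFL1 and SUMM2 in colour, the others in grey and the median of all 41 members dashed. RFL1 lies at 0.60 at 3 h, where the call was lost without 1 mock library, and the median lies at -0.18, -0.41 and -0.16.

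Over the 8 contrasts of a dose with mock, 35 of 41 members were called at least once, against 43.3% of all tested genes, and 14 at least 3 times, against 5.90%. The other 6 were never called, among them CHS1, RFL1, RPS2, SUMM2 and WRR4B. The 8 members that rose after 10 cGy at both 1 h and 72 h (ADR1-L1, AT1G31540, AT5G41740, AT5G46490, RPP2B, RPS4, RPS6 and TN13) are 57.1% of the 14 of 1 h and 32.0% of the 25 of 72 h. Of all 41 members, 61.0% rose at 72 h, so the first share is near that of the members as a whole. Over all tested genes, 267 rose at both times, 10.4% of those of 1 h and 30.0% of those of 72 h. AT1G31540, AT4G36150, NRG1.2, TN13 and ZAR1, 5 of the 6 that fell at 3 h, are among the 25 that rose at 72 h. Over all tested genes, 47 of the 136 that fell at 3 h rose at 72 h (34.6%). TN13 was called in each of the 4 contrasts of 10 cGy, down at 3 h and up at the other times.

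Other NB-ARC genes can be set beside the members. RefSeq product names mark 154 loci of the table as NBS-LRR, NBS class or NB-ARC, of which 37 are members, and 77 of the others passed the filter. Of these 77, 17 rose and 3 fell after 10 cGy at 1 h, against 13.6% and 11.8% of all tested genes. At 24 h 6 rose and 0 fell, against 2.62% and 0.673%, where 11 of 41 members rose. At 72 h 22 rose and 0 fell, against 4.72% and 4.66%. At 3 h, 33 were higher after 100 cGy than after 10 cGy and 0 were lower (all genes 11.7% and 0.821%). Against mock at 3 h, 1 rose and 4 fell after 10 cGy (0.774% and 0.721%). After 100 cGy, 12 rose and 4 fell at 1 h (all genes 10.3% and 7.37%) and 9 rose and 0 fell at 3 h (10.6% and 1.86%). None was called after 100 cGy at 24 h (0.201% and 0.397%), and 3 rose and 0 fell at 72 h (1.37% and 0.217%). Their median difference for 10 cGy at 72 h was 0.19, beside 0.33 for the members and 0.03 for all genes.

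Genes that work with NLRs gave a mixed result. Of 16 genes for the EDS1 node, chaperones and guarded proteins, 6 rose and 0 fell after 10 cGy at 72 h (median 0.23), against 4.72% and 4.66% of all tested genes. They were RIN4, 0.36 (SE 0.08, adjusted p = 0.0065), a guarded membrane protein, NDR1, 0.66 (SE 0.16, adjusted p = 0.0078), which CNL signalling needs, SGT1B, 0.20 (SE 0.06, adjusted p = 0.022), a co-chaperone, PBL2, 0.66 (SE 0.19, adjusted p = 0.028), the decoy kinase of ZAR1, EDS1, 0.43 (SE 0.14, adjusted p = 0.047), and PAD4, 0.41 (SE 0.13, adjusted p = 0.048). At 3 h after 10 cGy NDR1 fell, -0.67 (SE 0.16, adjusted p = 0.025), and HSP90.1 rose, 0.74 (SE 0.17, adjusted p = 0.027). At 1 h, HSP90.2, a chaperone of NLR proteins, rose after 10 cGy, 0.36 (SE 0.11, adjusted p = 0.013), and fell after 100 cGy, -0.44 (SE 0.11, adjusted p = 0.0031), and the difference between the doses was -0.80 (SE 0.11, adjusted p = 3e-05). Sequence shared with other loci was checked for the NLR members only, so reads of HSP90.2 may be split with similar genes. In all, 3 of these 16 rose after 10 cGy at 1 h, a share near the 13.6% of all genes, and 2 fell after 100 cGy, against 7.37%. Between the doses at 1 h, 3 of the 16 were lower after 100 cGy and 0 higher, against 0.408% and 0.318% of all genes. At 3 h 5 were higher after 100 cGy than after 10 cGy and 1 was lower, against 11.7% and 0.821%. Calls of this list were not checked under rescaling by median ratios. Against mock, 3 rose at 3 h after 100 cGy (SAG101, PBL2 and PBS1), where 10.6% of all genes did. At 72 h after 100 cGy 1 rose (PBL2), where 1.37% of all genes did. None was called against mock at 24 h after either dose.

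Of 15 genes that control NLR RNA or protein, SGS3, which helps make secondary small interfering RNAs, fell at 1 h after 10 cGy, -0.56 (SE 0.08, adjusted p = 8.6e-06), and after 100 cGy, -0.36 (SE 0.08, adjusted p = 0.0022). SNIPER1, a ubiquitin ligase for NLRs, fell at 1 h after 100 cGy, -0.66 (SE 0.17, adjusted p = 0.0049), and rose at 72 h after 10 cGy, 0.52 (SE 0.17, adjusted p = 0.044). At 3 h after 100 cGy, 5 of the 15 rose and 0 fell, among them UPF3, EDM2, CPR5 and SRFR1, with differences of 0.14 to 0.28, where the median of all genes was 0.09 and 10.6% rose and 1.86% fell. These calls were not checked under rescaling by median ratios, which lowered the median of all genes in this contrast. At 72 h after 10 cGy, SRFR1, a repressor of TNL immunity, rose by 0.17 (SE 0.04, adjusted p = 0.014) and DCL4, a Dicer, by 0.22 (SE 0.07, adjusted p = 0.044). CPR1, the F-box protein that marks SNC1 and RPS2 for turnover, was the only one of the 15 called at 24 h, 0.29 (SE 0.07, adjusted p = 0.019) after 10 cGy. In that contrast 2.62% of all genes rose and 0.673% fell. Between the doses at 3 h, 5 of the 15 were higher after 100 cGy and 0 lower, against 11.7% and 0.821% of all genes, also not checked under rescaling.

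Of 11 tested genes for salicylate and immune output, 3 rose and 2 fell after 10 cGy at 1 h, where 13.6% of all genes rose and 11.8% fell, so that these few calls do not set the list apart. The salicylate pathway gene EDS5 rose by 0.78 (SE 0.20, adjusted p = 0.0047) and the regulator CBP60g by 0.81 (SE 0.26, adjusted p = 0.023). ICS1, which makes the salicylate precursor, and PR5, a defence protein, differed by -0.55 (SE 0.11, adjusted p = 0.00046) and -0.70 (SE 0.17, adjusted p = 0.0033). NPR1, a salicylate receptor, rose at 1 h and at 72 h after 10 cGy, by 0.29 (SE 0.08, adjusted p = 0.005) and 0.35 (SE 0.08, adjusted p = 0.0045). WRKY70 fell at 3 h, -0.996 (SE 0.25, adjusted p = 0.036), and rose at 72 h after 10 cGy, 0.89 (SE 0.25, adjusted p = 0.022). After 100 cGy 1 of the 11 rose and 2 fell at 1 h, against 10.3% and 7.37% of all genes. At 3 h 1 rose and 0 fell, against 10.6% and 1.86%. None was called at 24 h (all genes 0.201% and 0.397%) or 72 h (1.37% and 0.217%). Between the doses at 3 h, 3 of the 11 were higher after 100 cGy and 0 lower, against 11.7% and 0.821%.

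Close copies and neighbours had the following values. RPS4 rose in 3 dose contrasts and RRS1, 27 bases away, in 2; at 1 h after 10 cGy RPS4 differed by 0.21 (SE 0.06, adjusted p = 0.016) and RRS1 by 0.02 (SE 0.06, adjusted p = 0.85). CSA1 (AT5G17880) and CHS3 (AT5G17890), a divergent TNL pair with 3544 bases between them, differed by 0.33 (SE 0.08, adjusted p = 0.01) and 0.08 (SE 0.05, adjusted p = 0.40) at 72 h after 10 cGy, and by 0.11 (SE 0.08, adjusted p = 0.43) and 0.25 (SE 0.05, adjusted p = 0.00079) at 1 h after 100 cGy. WRR4A and WRR4B, 79.8% identical in their coding sequence, differed by 0.44 (SE 0.09, adjusted p = 0.00034) and -0.24 (SE 0.16, adjusted p = 0.30) at 1 h after 10 cGy. Whether the members of a pair differ from each other was not tested.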

How the data were processed

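RNA was extracted from whole rosettes and sequenced as directional poly(A) libraries, per the labels' protocols. The submitters' processing notes name Trimmomatic 0.32, STAR 2.5.2b, RSEM 1.2.28 and the build TAIR10, without their roles or order. The authors deposited CPM per gene, which sum to 1000000 in each library, and a second table whose values are the natural log of CPM + 1 (largest difference 4.1e-09 from that transform of the first), which was used only for this check. Between 88.8% and 90.6% of the values per library stood for whole reads (tolerance 0.02 reads), too few for a count test.

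Genes with at least 1 CPM in at least 3 libraries were tested with limma 3.58.1 in R 4.3.3 on log2(CPM + 0.5), which understates changes of low genes, with 1 mean per group over all 36 libraries, a mean-dependent prior and Benjamini-Hochberg adjustment over 18875 genes. The procedure was tested on simulated data. The members and gene lists were chosen with earlier results of these data known. By rule, values or fits are given for 11 fixed members, for up to 6 called members with the smallest p and no overlap in each contrast of a dose with mock, for up to 6 called members between the doses and for the 4 largest rises and 4 largest falls from 1 h to 3 h in mock. Of the other lists, up to 6 called genes per contrast are named. Results of some genes are not reported here. Other genes named were chosen after their values were seen. Sequences and coordinates are from RefSeq TAIR10.1, in which all 42 loci and 32548 table genes were found by locus tag, read with Biopython 1.88. Alternatives were pseudocounts of 0.1 and 1, no filter on low values, median-ratio rescaling, only the times compared in the fit, a replicate block and each library left out. Replicate numbers deviated together in all 3 pairs only for mock and 100 cGy at 24 h (correlations of 0.25 to 0.34). Of all 36 same-number pairs, 10 had their highest correlation with their own number, and correlations ran from -0.43 to 0.41. A pairing is not established by these values or by the labels, and the main fit used none.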

Additional observations from a re-analysis of the deposited data

Results flagged for a closer look

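The effect of 10 cGy differed between 1 h and 3 h in 22 NLR genes and that of 100 cGy in 5, by limma's interaction term with an adjusted p under 0.05 over all tested genes, which is what brings them here. For 10 cGy all changes in the log2 difference from mock were negative. Among TIR-type sensors they were -0.39 in RPS4, -0.61 in AT5G46490, -0.51 in RPS6, -0.75 in AT1G31540, -0.69 in AT4G36150, -0.76 in RPP4, -0.28 in RPP5, -0.33 in LAZ5, -0.59 in AT3G44400, -0.55 in WRR4A, -0.85 in AT5G41740, -0.26 in CHS3, -0.48 in AT5G36930, -0.49 in RPP2B and -0.74 in RLM1B. The TIR-NB gene TN13 changed by -1.40. Among CNLs the changes were -1.58 in RPS2, -0.54 in RPM1, -0.77 in ZAR1 and -0.32 in RPP13, and among helpers -0.87 in ADR1-L1 and -0.65 in NRG1.2. The annotated RPS2 gene overlaps 2 annotated genes on the other strand, and its CPM stood for whole reads in 2.78% of libraries.

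For 100 cGy the changes were -0.38 in AT5G46490, -0.33 in RPP4 and -0.53 in RLM1B, and 0.22 in RPP1 and 0.55 in AT3G44630. RPP1 and AT3G44630 share reads. AT5G46490, RPP4 and RLM1B are also among those that changed with 10 cGy, from separate irradiated libraries and the same mock libraries.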

How the results depend on the processing

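Counts of called members depended on the setting as follows. For 10 cGy at 24 h (11) the count was 7 with no filter, 0 with only the 24 h libraries, 7 with the replicate block, 2 after rescaling, and 0 to 10 with 1 library left out. For 10 cGy at 3 h (6) it was 3 with no filter, 1 with only the 3 h libraries, 3 with the replicate block, and 0 to 8 with 1 library left out. For 100 cGy at 3 h (4) it was 1 with only the 3 h libraries, 0 after rescaling, and 0 to 5 with 1 library left out. For 100 against 10 cGy at 3 h (24) it was 0 with only the 3 h libraries, 3 after rescaling, and 7 to 25 with 1 library left out. For 100 cGy at 72 h (2) it was 0 with only the 72 h libraries and 0 to 4 with 1 library left out. For 100 against 10 cGy at 24 h (0) it was 1 with the replicate block. With 1 library left out, the counts were 13 to 25 for 10 cGy at 72 h, 0 to 12 for 100 against 10 cGy at 72 h, 2 to 5 for the 100 cGy change from 1 h to 3 h (2 without mock replicate 2 or 3 of 1 h or mock replicate 1 of 3 h, 3 without 100 cGy replicate 1 or 2 of 1 h), and 9 to 18 for mock at 72 h (9 without mock replicate 1 of 1 h). The cause was not tested. The labels do not say that a replicate number marks a shared plant or batch. At 1, 3 and 72 h, 1 of 9 same-number pairs at each time had a correlation of deviations from their group means above 0.1, and no comparison had it in all 3 pairs. At 24 h 7 of 9 did. Mock and 100 cGy at 24 h met it in all 3 pairs (0.25 to 0.34), and the replicate block left that count at 0. Mock and 10 cGy met it in 2 of 3, and so did 10 and 100 cGy.

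Rescaling also moved the share of rises among all called genes from 79.5% to 35.0% for 10 cGy at 24 h, 85.0% to 33.1% for 100 cGy at 3 h, 93.5% to 34.8% between the doses at 3 h, 12.7% to 80.4% between them at 24 h, 33.6% to 51.6% and 86.3% to 61.3% for 100 cGy at 24 h and 72 h, and 68.5% to 40.1% for the 100 cGy change, where the members' median went from 0.03 to -0.06. Of 49 named differences, 23 lost the call with only the times compared, 13 after rescaling, 5 with the replicate block, 4 with no filter and 0 with either other pseudocount, and 57 of 294 did when 1 library was left out. None of these changed sign. Libraries hold 22100000 to 36700000 reads, and members near 1 CPM rest on few of them.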
